A study of Homo sapiens with 6 samples.

Results

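The genes described here are 10 genes of cAMP breakdown and of CREB-dependent transcription in HEY, a cell line from a human ovarian cancer: the phosphodiesterases PDE4A, PDE4B and PDE4D, the transcription factors CREB1, CREB5 and CREM, and the target genes NR4A1, NR4A2, NR4A3 and SIK1. They were taken by gene symbol from a table of 58735 genes, and all 10 were found. The members were chosen on earlier measured values of the same comparison, so their differences between the groups are given as a description and support nothing. RNA was sequenced from oeCSGALNACT2 cells, which carry full-length CSGALNACT2 in the plasmid pLVX-IRES-Puro, and from Vector cells, which carry the empty plasmid, with 3 libraries of each. Both groups share the HEY background and the puromycin marker of the plasmid. The methods describe plasmid transfection as well as lentiviral infection with puromycin selection, and the study calls the cells used for this RNA-seq stably overexpressing. Whether the overexpressing cells are a pool or 1 clone, and whether the libraries of a group are separate cultures, is not given in the sources used here. All p-values are therefore relative to the spread among the libraries sequenced, and that spread may be technical. The comparison asks which genes differed when CSGALNACT2, an enzyme that adds N-acetylgalactosamine during chondroitin sulfate synthesis, was overexpressed.

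Cyclic AMP is made by adenylyl cyclases when Gs-coupled receptors are active, and it releases the catalytic subunits of protein kinase A. Protein kinase A phosphorylates CREB at the cAMP response element (CRE) of target genes, whereas PDE4 enzymes hydrolyse cAMP and end the signal. Several members are known to be induced by cAMP in many cell types: PDE4B, PDE4D, an internal promoter of CREM, the NR4A genes and SIK1.

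The promoters of the members were searched for the CRE, because CREB binds there. RefSeq windows of 300 bases on GRCh38.p14, from 250 bases before to 50 bases after each annotated start, were on hand for 9 members, with 34 windows in all. NR4A2 was not among them. Both strands were searched for the full element TGACGTCA, for the short site TGACG and for the variant form TGATGTCA, and each full element also counts as 2 short sites, 1 on each strand. The stretches below hold the matches outside annotated exons of GENCODE 29, with up to 15 flanking bases, written 5′ to 3′ on the strand of the gene, and the capitals mark the motifs or their reverse complements.
PDE4A, chr19:10416670-10416772, plus strand: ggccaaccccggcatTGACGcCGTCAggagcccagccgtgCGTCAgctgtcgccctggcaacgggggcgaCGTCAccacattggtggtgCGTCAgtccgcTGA
CREM, internal start, chr10:35167493-35167515, plus strand: tgtgcagctatactaTGACATCA
CREM, internal start, chr10:35195059-35195107, plus strand: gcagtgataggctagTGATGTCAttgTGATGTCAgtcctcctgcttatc
CREM, internal start, chr10:35195761-35195864, plus strand: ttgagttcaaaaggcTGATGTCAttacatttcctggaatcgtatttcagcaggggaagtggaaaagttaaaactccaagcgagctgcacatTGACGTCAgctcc
NR4A3, chr9:99821761-99821821, plus strand: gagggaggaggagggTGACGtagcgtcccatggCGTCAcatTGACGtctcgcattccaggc
SIK1, chr21:43427238-43427363, minus strand: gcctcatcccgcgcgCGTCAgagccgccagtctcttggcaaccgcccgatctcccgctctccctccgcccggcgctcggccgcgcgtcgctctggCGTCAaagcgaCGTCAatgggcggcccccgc
PDE4D, chr5:59587663-59587697, minus strand: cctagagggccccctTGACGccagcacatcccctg

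The full element was found in windows of PDE4A and CREM only. With the annotated start as position 0, the element of PDE4A runs across the start, from -3 to 4, so only its first bases stand at the end of the printed stretch. PDE4A had 7 short-site matches in that window, NR4A3 had 4 and SIK1 had 3. In CREM the full element lay at -50 to -43 of the start at position 35195902, and a neighbouring window of CREM holds the same bases. The variant form was found in 4 of the 7 windows of CREM, with 2 matches before the start at position 35195133, and once in PDE4B, from -4 to 3. Only 1 of the 8 windows of PDE4D held a short site, and none of the 3 windows of CREB5, the window of CREB1 or the 2 windows of NR4A1 held any of the 3 motifs. Over all 35116 windows of the table, the full element was found in 1.85%, the short site in 24.6% and the variant form in 2.61%. For the members these were 3, 7 and 5 of the 34 windows, where neighbouring windows of CREM share a full element and a variant match. Counted by gene, the shares over the table were 2.25%, 28.4% and 3.18%. Among the members the full element was in PDE4A and CREM and the variant form in CREM and PDE4B. The short site was in PDE4A, PDE4D, CREM, NR4A3 and SIK1. A match describes the letters of the window and is not a measured binding site.

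The libraries gave 15628834 to 18186682 reads in oeCSGALNACT2 cells and 16619783 to 17776554 reads in Vector cells. CSGALNACT2 itself was at 535, 453 and 409 FPKM in oeCSGALNACT2 cells, against 15.3, 8.18 and 8.12 FPKM in Vector cells, where FPKM are reads scaled by gene length and library size. No library overlapped with the other group, and the difference was 5.39 on the log2 scale (two-sided exact permutation p = 0.1, which is the lowest value this design can give). The titles of the oeCSGALNACT2 samples name CSGALNACT1, while their descriptions and the study name CSGALNACT2. Of 7 markers of ovarian carcinoma and epithelium, 5 had a mean of at least 1 FPKM, PAX8 and the keratins KRT7, KRT8 and KRT18 among them, whereas MUC16 was at or near 0 and EPCAM reached at most 1.23 FPKM. These 7 markers summed to 332 to 571 FPKM in oeCSGALNACT2 and 176 to 321 FPKM in Vector libraries without overlap, and KRT8 was at 132 to 233 FPKM in oeCSGALNACT2 and 56.8 to 95.5 FPKM in Vector libraries. The 4 leukocyte markers summed to at most 0.0990 FPKM in oeCSGALNACT2 and 0.106 FPKM in Vector libraries. The 3 fibroblast markers summed to 2.78 to 5.38 FPKM in oeCSGALNACT2 and 2.91 to 4.71 FPKM in Vector libraries, with DCN at or near 0. The pair of endothelial markers summed to 6.25 to 10.3 FPKM in oeCSGALNACT2 and 19.7 to 30.7 FPKM in Vector libraries, nearly all of it CDH5, while PECAM1 was at 0.0554 to 0.141 FPKM in oeCSGALNACT2 and 0.212 to 0.236 FPKM in Vector libraries. The mitochondrial share of reads was 4.60% to 4.82% in oeCSGALNACT2 and 2.77% to 3.61% in Vector libraries. The part of the keratins, of CDH5 and of the mitochondrial share in the differences below was not tested. In bulk RNA, fewer cells of a type and less RNA per cell cannot be told apart.

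Replicate 1 of each group stood apart from replicates 2 and 3. Across genes, Pearson's r was 0.985 between oeCSGALNACT2 replicates 2 and 3 and 0.990 between Vector replicates 2 and 3, but 0.894 between oeCSGALNACT2 replicates 1 and 2 and 0.913 between Vector replicates 1 and 2 (genes are not independent replicates). The members showed the same split. On the log2(FPKM + 1) scale, CREM was higher in replicate 1 than in the mean of the other two by 0.82 in oeCSGALNACT2 and 0.54 in Vector cells, and CREB1 by 0.42 and 0.46 in the same groups. NR4A1 lay the other way, at -0.57 in oeCSGALNACT2 and -0.74 in Vector cells, as did PDE4A, at -0.59 and -0.58. PDE4B and NR4A3 moved by less than 0.1 in either group. Results are therefore also given for replicates 2 and 3 alone and for a fit with the replicate number as a block.

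All members had a lower mean in oeCSGALNACT2 than in Vector cells, by 1.19-fold for PDE4A to 5.64-fold for PDE4D. Genes were tested by limma on log2(FPKM + 1) where the mean was at least 1 FPKM, which holds for 7 of the 10 members, with adjustment by Benjamini and Hochberg over 11479 genes and a threshold of 0.05. PDE4B, NR4A2 and SIK1 were under this filter and were fitted on reads recovered from the FPKM values, and in limma only when the filter was dropped. In limma, PDE4D and CREB5 passed as lower and none as higher, 2 of 7, where 0.845% of all genes tested passed as lower and 0.505% as higher. The median log2 fold change was -0.48 over the 7 members and -0.01 over all genes tested. With the replicate block 6 of the 7 passed as lower, all but PDE4A, and none as higher, where 22.5% of all genes passed as lower and 21.2% as higher. Replicates 2 and 3 alone gave the same number, 6 of 7, where 21.1% of all genes passed as lower. With edgeR on the recovered reads, 2 of 9 members passed as lower and none as higher, where 0.552% of 14309 genes passed as lower and 0.419% as higher. With the block in edgeR 7 of 9 passed as lower, where 20.1% of all genes did, and in DESeq2 3 of 10 passed as lower, where 1.49% did. Since the members were chosen on this comparison, nothing is read from these shares.

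**Figure D1:**
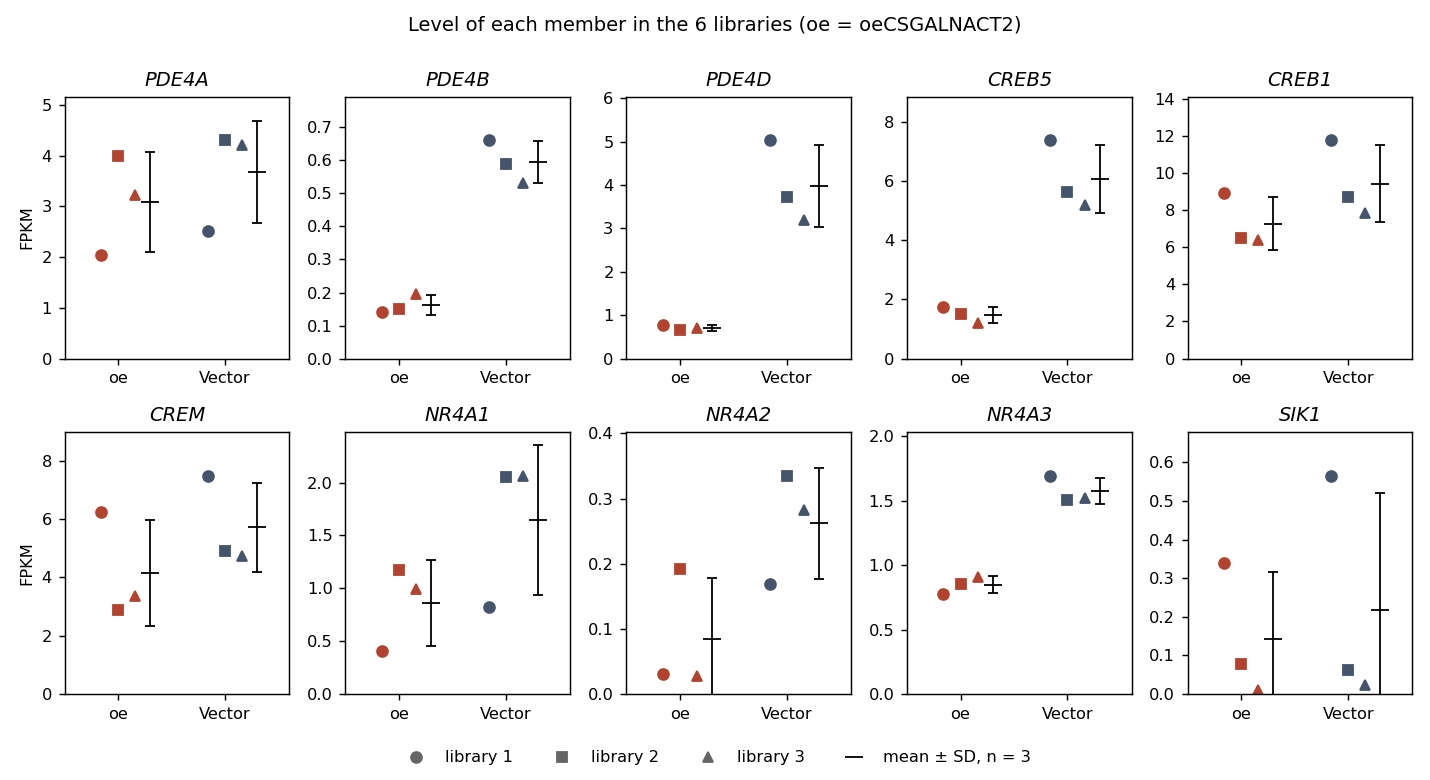
FPKM of each member by library, with oeCSGALNACT2 (oe) left of Vector; symbols mark the replicate number, and the line and bar give the mean ± SD of 3 libraries (bars end at the axis where they would pass below 0). PDE4B, PDE4D, CREB5 and NR4A3 have every oeCSGALNACT2 library below every Vector library.

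PDE4D showed the largest fold difference of the members. This gene encodes a cAMP-specific phosphodiesterase with many isoforms and lies on the minus strand of chromosome 5 (chr5:58969038-60522120, GRCh38, ENSG00000113448). It was at 0.772, 0.648 and 0.697 FPKM in oeCSGALNACT2 replicates 1 to 3, against 5.03, 3.71 and 3.20 FPKM in Vector replicates 1 to 3. The groups were far apart relative to their spread, with 0.706 ± 0.0623 FPKM in oeCSGALNACT2 and 3.98 ± 0.943 FPKM in Vector cells (SD, n = 3 each). These values rest on 205, 180 and 208 reads in oeCSGALNACT2 and 1349, 1093 and 884 reads in Vector libraries. In limma the log2 fold change came to -1.53 (SE 0.18, adjusted p = 0.0236) on the log2(FPKM + 1) scale, which understates differences of low genes, and -2.46 (adjusted p = 0.0148 from edgeR) on the recovered reads. The call depended on which library was left out: without replicate 2 or 3 of either group limma gave adjusted p of 0.114 to 0.196, at log2 fold changes of -1.64 to -1.51, while without replicate 1 of either group the call held. The antisense RNA PART1 shares 227 exon bases with PDE4D but had at most 3 reads in any library.

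PDE4B, a second cAMP-specific phosphodiesterase, was lower at a much lower level. The gene lies on the plus strand of chromosome 1 (chr1:65792514-66374579, ENSG00000184588). It was at 0.142, 0.150 and 0.196 FPKM in oeCSGALNACT2 cells, from 20, 22 and 31 reads, against 0.661, 0.590 and 0.533 FPKM in Vector cells, from 94, 92 and 78 reads. All oeCSGALNACT2 libraries lay below all Vector libraries, and the mean was 3.66-fold lower. In edgeR the log2 fold change was -1.83 with an adjusted p of 0.0522, just outside the threshold, and the adjusted p was 0.000906 with the replicate block and 0.00151 in DESeq2. In limma without the filter the log2 fold change was -0.46 on the log2(FPKM + 1) scale (adjusted p = 0.149).

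PDE4A, the third phosphodiesterase of the group, overlapped between the groups. The gene lies on the plus strand of chromosome 19 (chr19:10416773-10469631, ENSG00000065989), and its first annotated start is the one with the short CRE sites printed above. It was at 2.04, 3.995 and 3.22 FPKM in oeCSGALNACT2 cells, against 2.52, 4.30 and 4.21 FPKM in Vector cells. The lowest value of each group was that of replicate 1. Its limma log2 fold change was -0.20 (SE 0.26, adjusted p = 0.763), and it passed in neither block fit, with adjusted p of 0.127 in limma and 0.141 in edgeR. CDC37 overlaps PDE4A on the opposite strand without sharing exon bases and had up to 4103 reads in a library.

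FPKM are scaled by length, so the PDE4 genes can be summed. Together PDE4A, PDE4B and PDE4D came to 2.96, 4.79 and 4.11 FPKM in oeCSGALNACT2 libraries and to 8.21, 8.60 and 7.95 FPKM in Vector libraries. The mean sum was 3.95 ± 0.928 FPKM in oeCSGALNACT2 and 8.25 ± 0.330 FPKM in Vector cells (SD, n = 3 each), without overlap. PDE4D made up 26.1%, 13.5% and 17.0% of the sum in oeCSGALNACT2 libraries and 61.3%, 43.2% and 40.3% in Vector libraries. PDE4A took the largest share in every oeCSGALNACT2 library, at 69.1% to 83.4%. It was also the largest in Vector replicates 2 and 3, at 50.0% and 53.0%. Only in Vector replicate 1 was PDE4D the largest, with PDE4A at 30.7%. The remaining PDE4 gene, PDE4C, had 0 reads in all 6 libraries, which allows up to 3 reads in each (this gene was picked after its values were seen).

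**Figure D2:**
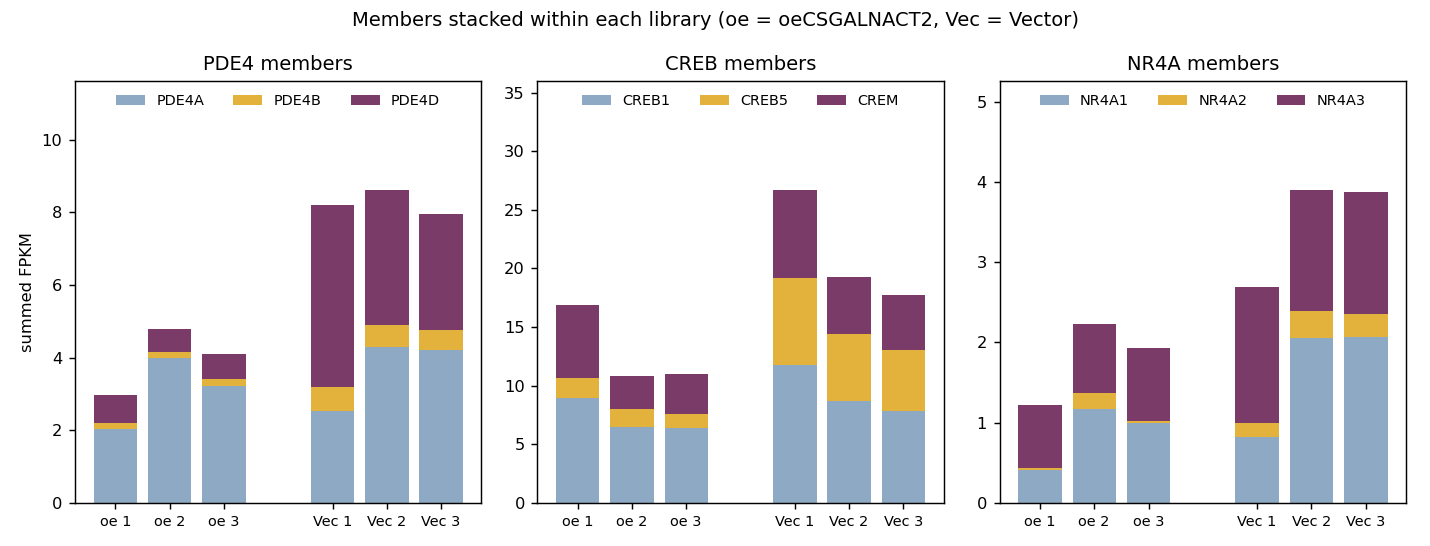
Summed FPKM of the PDE4, CREB and NR4A members in each library, with oeCSGALNACT2 (oe) left of Vector (Vec); the height of a coloured segment is the FPKM of 1 gene. The PDE4 sums are at most 4.79 FPKM in oeCSGALNACT2 libraries and at least 7.95 FPKM in Vector libraries, and most of the gap is PDE4D.

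Among the transcription factors, CREB5 differed most. CREB5 is a bZIP factor that binds the CRE, and its gene lies on the plus strand of chromosome 7 (chr7:28299321-28825894, ENSG00000146592). It was at 1.74, 1.51 and 1.19 FPKM in oeCSGALNACT2 cells, against 7.39, 5.65 and 5.19 FPKM in Vector cells. The groups did not overlap, and the mean was 1.48 ± 0.272 FPKM in oeCSGALNACT2 and 6.07 ± 1.16 FPKM in Vector cells (SD, n = 3 each). The reads behind these values were 330, 300 and 255 in oeCSGALNACT2 and 1418, 1191 and 1025 in Vector libraries. The fitted log2 fold change in limma was -1.51 (SE 0.18, adjusted p = 0.0236) and -2.01 in edgeR (adjusted p = 0.026). As for PDE4D, leaving out replicate 2 or 3 of either group ended the call, with adjusted p of 0.129 to 0.196 in limma at log2 fold changes of -1.60 to -1.42.

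CREB1, the factor after which the family is named, had the highest mean level of the members. The gene lies on the plus strand of chromosome 2 (chr2:207529737-207603431, ENSG00000118260). It was at 8.95, 6.49 and 6.42 FPKM in oeCSGALNACT2 cells, against 11.8, 8.72 and 7.85 FPKM in Vector cells. The groups overlapped, since replicate 1 of the oeCSGALNACT2 cells lay above replicates 2 and 3 of the Vector cells. In limma CREB1 differed by -0.33 on the log2 scale (SE 0.21, adjusted p = 0.501), with an adjusted p of 0.0135 with the replicate block and 0.0296 for replicates 2 and 3 alone. METTL21A overlaps CREB1 on the opposite strand without sharing exon bases, with up to 311 reads in a library.

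CREM encodes activators as well as repressors, among them the short repressor ICER, which is made from the internal promoter. The gene lies on the plus strand of chromosome 10 (chr10:35126791-35212958, ENSG00000095794), and the table gives 1 value for all its transcripts, so ICER was not measured apart. CREM was at 6.23, 2.87 and 3.35 FPKM in oeCSGALNACT2 cells, against 7.49, 4.92 and 4.74 FPKM in Vector cells. Replicate 1 of the oeCSGALNACT2 cells lay among the Vector values, and the other two lay below them all. In limma the log2 fold change came to -0.42 (SE 0.29, adjusted p = 0.539), with an adjusted p of 0.022 with the replicate block and 0.0116 for replicates 2 and 3 alone. AL117336.2 overlaps CREM on the same strand without sharing exon bases, and it had at most 14 reads.

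The makeup of the 3 factors differed as well. CREB5 took 10.3%, 13.9% and 10.9% of their summed FPKM in oeCSGALNACT2 libraries and 27.7%, 29.3% and 29.2% in Vector libraries. CREB1 took 52.9% to 59.7% in oeCSGALNACT2 and 44.2% to 45.2% in Vector libraries. The shares of CREM overlapped, at 26.4% to 36.8% in oeCSGALNACT2 and 25.5% to 28.1% in Vector libraries.

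The NR4A genes encode orphan nuclear receptors that are transcribed early after many stimuli, cAMP among them. NR4A3 (chr9:99821855-99866891, plus strand, ENSG00000119508) was at 0.778, 0.856 and 0.909 FPKM in oeCSGALNACT2 cells, against 1.69, 1.51 and 1.53 FPKM in Vector cells. The groups did not overlap, with small spreads around 0.848 ± 0.0659 FPKM in oeCSGALNACT2 and 1.58 ± 0.103 FPKM in Vector cells (SD, n = 3 each), from 80 to 105 reads in oeCSGALNACT2 and 163 to 176 reads in Vector libraries. Its limma log2 fold change was -0.48 (SE 0.14, adjusted p = 0.166), and -0.86 in edgeR (adjusted p = 0.125). The adjusted p was 0.0361 in limma with the replicate block and 0.0313 for replicates 2 and 3 alone.

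NR4A1 (chr12:52022832-52059507, plus strand, ENSG00000123358) was at 0.404, 1.18 and 0.997 FPKM in oeCSGALNACT2 cells, against 0.825, 2.05 and 2.07 FPKM in Vector cells. The low replicate 1 of the Vector cells fell among the oeCSGALNACT2 values, while each oeCSGALNACT2 library was lower than the Vector library of the same number. The fitted log2 fold change in limma was -0.49 (SE 0.28, adjusted p = 0.445) and -0.90 in edgeR (adjusted p = 0.409), with an adjusted p of 0.0343 in limma with the replicate block. NR4A2 (chr2:156324432-156342348, minus strand, ENSG00000153234) had 2, 13 and 2 reads in oeCSGALNACT2 libraries, against 11, 24 and 19 reads in Vector libraries. These overlapping counts correspond to 0.0310, 0.193 and 0.0276 FPKM in oeCSGALNACT2 cells and to 0.169, 0.335 and 0.283 FPKM in Vector cells. NR4A2 passed in no fit, with an adjusted p of 0.366 in edgeR and 0.0716 with its replicate block. The summed NR4A level was 1.79 ± 0.520 FPKM in oeCSGALNACT2 and 3.49 ± 0.690 FPKM in Vector cells (SD, n = 3 each). NR4A1 and NR4A3 made up nearly all of this sum. NR4A3 took 64.1%, 38.5% and 47.0% of it in oeCSGALNACT2 libraries and 63.0%, 38.7% and 39.4% in Vector libraries. These shares were close between the groups for replicates 1 and 2 and further apart for replicate 3.

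SIK1, a kinase that phosphorylates the CRTC coactivators of CREB, could not be measured reliably. The gene lies on the minus strand of chromosome 21 (chr21:43414483-43427189, ENSG00000142178) and has a near-identical copy, SIK1B. The longest coding transcripts of the pair, 4805 and 4705 bases in GENCODE 29, aligned with 4698 identical bases and 7 mismatches, so reads could be split between them. SIK1 had 29, 7 and 1 reads in oeCSGALNACT2 libraries, against 49, 6 and 2 reads in Vector libraries. SIK1B had 94, 168 and 99 reads in oeCSGALNACT2 libraries, against 103, 145 and 154 reads in Vector libraries. Summed and scaled to 1000000 reads, the pair was at 7.87, 10.4 and 5.50 in oeCSGALNACT2 libraries and at 9.15, 8.49 and 9.30 in Vector libraries, which overlap. The share of the sum given to SIK1 went with the replicate number, at 23.6%, 4.0% and 1.0% in oeCSGALNACT2 and 32.2%, 3.97% and 1.28% in Vector libraries.

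Counted over libraries rather than fits, 3 of the 7 members above the filter had every oeCSGALNACT2 library below every Vector library, as did PDE4B under it, where 12.8% of the 11479 genes tested did so in that direction. All 7 were lower in oeCSGALNACT2 in each of the 3 pairs of same-numbered libraries, where 35.6% of genes were. Of the 3 members under the filter, PDE4B and NR4A2 were lower in all 3 pairs and SIK1 in 2.

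**Figure D3:**
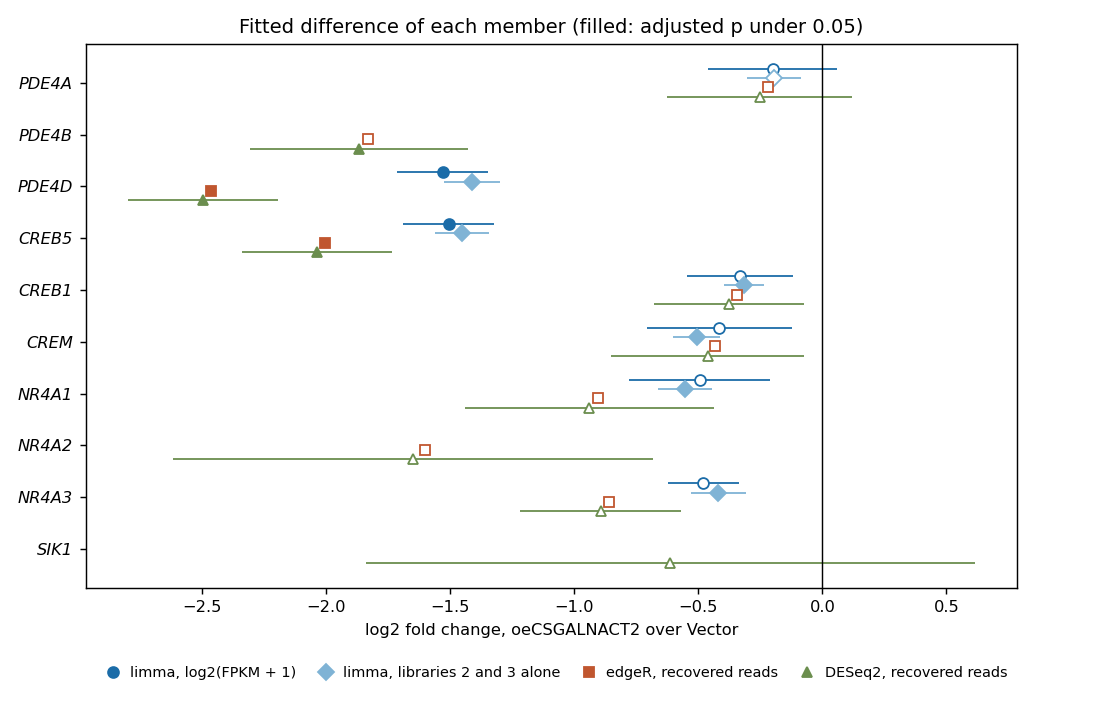
Log2 fold change of oeCSGALNACT2 over Vector for each member in 4 fits; bars are standard errors (none for edgeR), and filled symbols have an adjusted p under 0.05. All values are below 0, the low genes differ more on the recovered reads than on the log2(FPKM + 1) scale, and PDE4D and CREB5 are filled in all 4 fits.

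The pattern of PDE4D over the 6 libraries was nearest to those of SLC16A6, CREB5 and TNFSF15, at Euclidean distances of 0.205, 0.212 and 0.252 between centred log2(FPKM + 1) values. SLC16A6 was at 4.61, 3.69 and 4.24 FPKM in oeCSGALNACT2 cells, against 16.9, 11.5 and 11.3 FPKM in Vector cells. TNFSF15 was at 3.07, 2.96 and 3.17 FPKM in oeCSGALNACT2 cells, against 14.7, 11.8 and 10.8 FPKM in Vector cells. For CREB1 the nearest genes were QSER1, RCBTB1 and NUP58, at distances of 0.0615, 0.0674 and 0.0790, and in all of them replicate 1 was the highest of each group.

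Another 133 genes of the cAMP pathway, in 7 lists by function, were set beside the members, and 71 of them could be tested by limma. The lists too were chosen with earlier results of these data known, so their counts and medians are a description and support nothing. None passed as higher and 4 passed as lower, all of them in the list of other CREB target genes. Of all genes tested, 0.505% passed as higher and 0.845% as lower. With the replicate block 11 of the 71 passed as higher and 24 as lower, where 21.2% of all genes tested passed as higher and 22.5% as lower.

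Of the other phosphodiesterases, 5 of 21 were tested, with none passing and a median log2 fold change of -0.09 (no gene had an unadjusted p under 0.05, and edgeR and DESeq2 also called none). PDE2A, which hydrolyses cAMP and cGMP and had the highest level, was at 4.89, 7.84 and 8.09 FPKM in oeCSGALNACT2 cells, against 4.74, 7.61 and 8.66 FPKM in Vector cells. PDE6D, a prenyl-binding protein named for its association with the retinal enzyme, had a log2 fold change of -0.18. PDE7A, a cAMP-specific enzyme, had the largest difference of the 5 genes tested, 0.39 (adjusted p = 0.347 from limma and 0.0197 with the block). All its oeCSGALNACT2 libraries were above the Vector libraries. Genes of this list under the filter were not ranked.

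Of the protein kinase A subunits and inhibitors, 9 of 11 were tested and none passed (2 had an unadjusted p under 0.05), with a median of 0.12. PRKAR1A, the most abundant regulatory subunit, had a log2 fold change of -0.30, and PRKAR2A one of 0.40. PRKAR1B, a further regulatory subunit, was at 2.97, 4.37 and 3.97 FPKM in oeCSGALNACT2 cells, against 0.772, 1.48 and 1.91 FPKM in Vector cells. These groups did not overlap. The limma log2 fold change was 1.02 on the log2(FPKM + 1) scale (adjusted p = 0.1, and 0.00305 with the block). On the recovered reads it was 1.48 in edgeR (adjusted p = 0.115) and 1.44 in DESeq2 (adjusted p = 0.0136). Of the A-kinase anchoring proteins, which place protein kinase A in the cell, 10 of 17 were tested, with a median of -0.13 and none passing (3 with an unadjusted p under 0.05, and none in edgeR or DESeq2). AKAP12 had a log2 fold change of -0.39 and AKAP11 one of -0.57. AKAP8 differed by as much in the other direction, with a log2 fold change of 0.57 (adjusted p = 0.128 from limma) and every oeCSGALNACT2 library above every Vector library (AKAP8 was picked after its values were seen).

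Of the genes of cAMP synthesis and export, 10 of 18 were tested, with a median of -0.08 and none passing in limma, edgeR or DESeq2, nor at an unadjusted p under 0.05. GNAS, the Gs alpha subunit, was at 46.6, 42.3 and 45.0 FPKM in oeCSGALNACT2 cells, against 50.7, 48.4 and 49.7 FPKM in Vector cells, a log2 fold change of -0.15. GNAI2, an inhibitory alpha subunit, had one of -0.06, and the adenylyl cyclase ADCY9 one of 0.30. Of the Gs-coupled receptors only 4 of 20 were tested, and none passed in limma, edgeR or DESeq2 (2 had an unadjusted p under 0.05 in limma). The adenosine receptor ADORA2B was at 12.4, 12.5 and 12.5 FPKM in oeCSGALNACT2 cells, against 9.01, 9.36 and 8.73 FPKM in Vector cells. Its log2 fold change was 0.43 (adjusted p = 0.192 from limma and 0.0052 with the block).

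Of the other CREB and ATF factors, coactivators and SIK kinases, 16 of 18 were tested, with a median of -0.08 and none passing in limma or edgeR (3 with an unadjusted p under 0.05 in limma, and 2 lower in DESeq2). CREBZF had a log2 fold change of 0.36 and ATF1, a close relative of CREB1, one of -0.24. CREBRF, a regulator of CREB3, was at 3.40, 2.02 and 2.03 FPKM in oeCSGALNACT2 cells, against 9.63, 6.47 and 5.80 FPKM in Vector cells. Its groups did not overlap. The log2 fold change was -1.25 in limma (adjusted p = 0.0701) and -1.56 in DESeq2 on the recovered reads (adjusted p = 0.000706). CREB3 lay the other way, with a log2 fold change of 0.75 (adjusted p = 0.152 from limma). Every oeCSGALNACT2 library of CREB3 was above every Vector library (CREB3 was picked after its values were seen). Of the 16 genes tested in this list, 10 had a log2 fold change below 0.

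The 4 lower calls in limma stood among the other CREB target genes. This list was chosen with earlier results of these data known, and the study itself reports DUSP1 as lower in this RNA-seq. The counts and the median of the list are therefore a description. Of 28 genes 17 were tested, and 4 passed as lower, where 0.845% of all genes tested did. Of the 17, 16 had a log2 fold change below 0, with a median of -0.90 against -0.01 over all genes tested. With the replicate block 13 passed as lower and 1, the hyaluronan synthase HAS2, as higher (HAS2 was picked after its values were seen). In that fit 22.5% of all genes tested passed as lower and 21.2% as higher. EGR1, an immediate early zinc finger factor, was at 0, 0.468 and 0.349 FPKM in oeCSGALNACT2 cells, against 15.2, 22.4 and 20.7 FPKM in Vector cells (a count of 0 allows up to 3 reads). On the log2(FPKM + 1) scale EGR1 fell by 4.01 (SE 0.23, adjusted p = 0.00302 from limma), which understates the difference at such low values. On the recovered reads its log2 fold change was -6.10 (adjusted p = 0.0383 from edgeR). DUSP1, a phosphatase of MAP kinases, was at 21.8, 23.5 and 21.0 FPKM in oeCSGALNACT2 cells, against 92.5, 129 and 137 FPKM in Vector cells, and it fell by 2.36 (SE 0.20, adjusted p = 0.00973 from limma). None of these libraries overlapped between the groups. ATF3, a stress-induced factor that binds the CRE, was at 0.532, 0.756 and 1.11 FPKM in oeCSGALNACT2 cells, against 3.60, 3.67 and 3.06 FPKM in Vector cells. SGK1, a kinase induced by serum and glucocorticoids, was at 5.48, 4.94 and 4.86 FPKM in oeCSGALNACT2 cells, against 13.0, 11.2 and 10.9 FPKM in Vector cells. On the log2(FPKM + 1) scale ATF3 fell by 1.31 (adjusted p = 0.0315 from limma) and SGK1 by 1.06 (adjusted p = 0.0357 from limma). On the recovered reads the log2 fold change was -2.07 for ATF3 (adjusted p = 0.0474 from edgeR) and -1.17 for SGK1 (adjusted p = 0.0454 from edgeR). Such calls depended on the libraries kept. Of the 133 listed genes limma called 4 on all libraries, but only 1 without replicate 2 or 3 of either group. It called 2 without Vector replicate 1 and 4 without oeCSGALNACT2 replicate 1. With edgeR 0 were called without replicate 2 or 3 of either group. EGR1, DUSP1, ATF3 and SGK1 are also known to respond to MAP kinase, stress or glucocorticoid signals, and cAMP and phosphorylated CREB were not measured in these libraries.

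**Figure D4:**
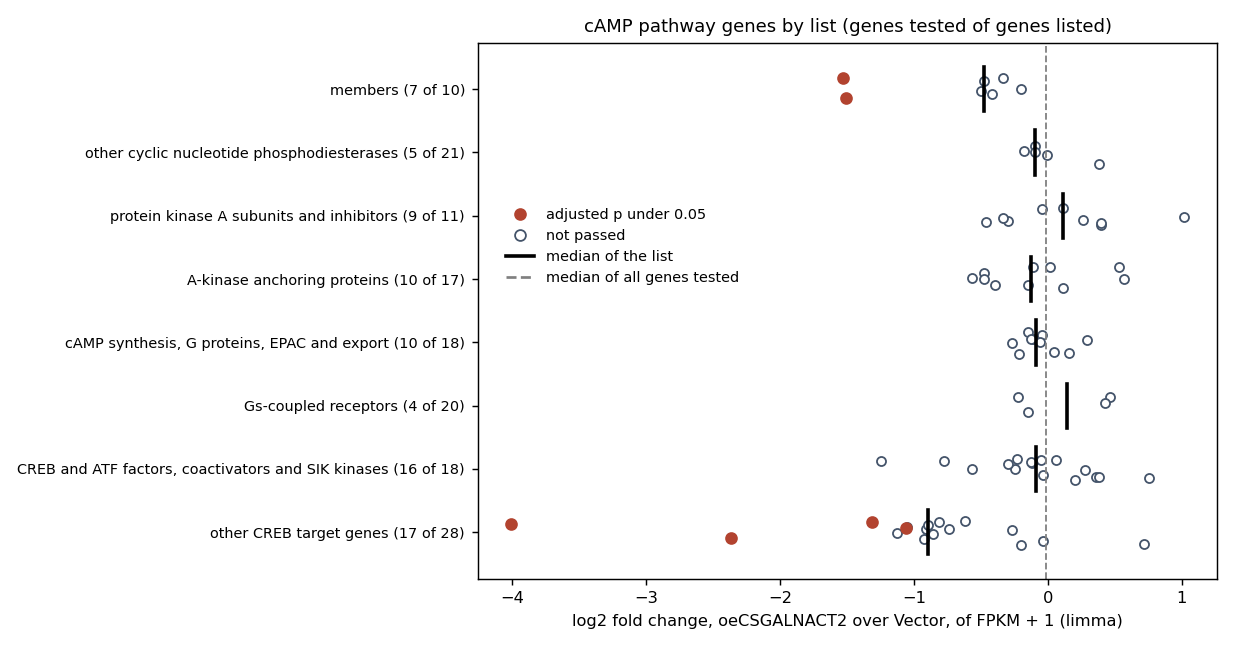
Log2 fold change of oeCSGALNACT2 over Vector on the log2(FPKM + 1) scale for each tested gene of the members and of the 7 lists; filled points passed an adjusted p of 0.05 in limma, black bars are list medians, and the dashed line is the median of all genes tested (-0.01). The other CREB target genes have a median of -0.90, while the medians of the other 6 lists lie between -0.13 and 0.14. The lists were chosen with earlier results of these data known, so nothing is read from these medians.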

How the data were processed

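RNA from oeCSGALNACT2 and Vector HEY cells, 3 libraries each, was prepared with a SMARTER mRNA kit at an RIN of at least 8.0 and sequenced by Novogene. Which aligner and counter were run is not given in the sources used here. Deposited by the authors were FPKM values, reads scaled by gene length and library size, and a table of raw counts, of which the copy used here holds 1310 genes. The processing notes name mm10, but all 58735 genes of the FPKM table have the place GENCODE 29 gives them on GRCh38, which was used throughout. FPKM multiplied by gene length and 1 constant per library returned whole reads for 100% of nonzero values (tolerance 0.01 of a read), equal to the deposited counts for all 1310 genes.

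Groups were compared on all 6 libraries with limma 3.58.1 (R 4.3.3, variance trend, log2 with a pseudocount of 1, mean of at least 1 FPKM). Alternatives were edgeR 4.0.16 (quasi-likelihood test, TMM, filterByExpr) and DESeq2 1.42.0 on the recovered reads, a pseudocount of 0.1, no filter, the replicate block, replicates 2 and 3 alone and each library left out. Leaving out libraries in edgeR was added after the data were seen. The limma and edgeR scripts were tested on simulated data in which 200 genes were changed. The simulated libraries held no shift of replicate 1, so that shift was not covered by this check. Deviations from the group means correlated between libraries of the same number (Pearson's r across genes 0.810, 0.631 and 0.686), and same-numbered libraries were treated as pairs on that ground, since no label states a pairing. Values of replicates 2 and 3 also correlated across numbers (0.682 and 0.590), so these are not shown to pair by number.

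The members, the lists and the naming rule were chosen with earlier results of these data known. Named were all members, copies of a member or genes overlapping one with at least 10 reads in a library, up to 6 genes per list that passed or else the 2 most abundant and the 1 with the largest difference, and the 3 genes nearest in pattern to PDE4D and to the most abundant member. A gene that this rule names is not reported here. No columns of the authors' own fold changes or p-values were used.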

Additional observations from a re-analysis of the deposited data

How the results depend on the processing

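All 10 members kept their direction in every alternative that gave them a value, but some of these values were very small. Without oeCSGALNACT2 replicate 1 the log2 fold change of PDE4A was -0.0024 in limma and -0.022 in edgeR. Without oeCSGALNACT2 replicate 3 that of SIK1 was -0.027 in edgeR. In limma 58 genes were called higher and 97 lower, with 2 members and 4 other cAMP pathway genes. Without a filter on low values these became 11, 20, 0 and 2, with adjusted p of 0.0827 for PDE4D and 0.0771 for CREB5, where more genes enter the adjustment. With the replicate block in limma they became 2439, 2578, 6 and 35, and with the replicate block in edgeR 3179, 2879, 7 and 45. Replicates 2 and 3 alone gave 2379, 2421, 6 and 36. DESeq2 called 313 genes higher, 418 lower and 13 of the other pathway genes. The cause of these shifts was not tested. Leaving out 1 library in limma gave 1 to 71 genes higher, 4 to 88 lower, 0 to 2 members and 1 to 4 other pathway genes, and in edgeR 1 to 82 (23 without Vector replicate 1), 1 to 107 (40 without it), 0 to 2 and 0 to 5. Both members were lost without replicate 2 or 3 of either group. The difference of CSGALNACT2 was 5.24 to 5.66 without 1 library and 5.51 with a pseudocount of 0.1. Low counts limit NR4A2 and SIK1, which had at most 24 and 49 reads in a library, and reads of SIK1 could be split with SIK1B.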
